A study of Danio rerio with 4 samples.

Results

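The genes described here encode the extracellular matrix and the machinery that makes it: collagens, laminins, a nidogen, fibronectins, actinodins, matricellular proteins, metalloproteinase inhibitors, integrins and collagen-modifying enzymes. They were taken by symbol, as every probe set whose single annotated gene symbol begins with a name of these families. The rule took 64 of the 15617 probe sets on the array, for 55 of 8793 named genes. RNA came from zebrafish (Danio rerio) embryos of the AB strain, 3 days after fertilization, that carried the reporter Tg(cmyb:EGFP), in which the cmyb promoter drives EGFP. A control morpholino had been injected into the embryos behind 2 arrays, and a morpholino against the microRNA miR-34b into those behind the other 2, here called morphants. Morpholinos are antisense oligomers that block the function of an RNA. Each extract came from 20000 GFP-positive cells sorted from a digested block of tissue around the kidney, and the labels call these cells kidney multiciliated cells.

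Collagens are secreted proteins whose 3 chains wind into a helix. Fibrillar collagens (types I, II, III, V, XI and others) form the load-bearing fibrils of skin, bone, tendon and cartilage, while laminins, nidogens and collagens IV, XV and XVIII build or border the basement membrane, the thin sheet under epithelia, kidney tubules, muscle and vessels. Newly made collagen chains are hydroxylated on proline and lysine and folded in the endoplasmic reticulum with the help of dedicated chaperones before export. Actinodins are structural proteins of the actinotrichia, the stiff fibres of the fin fold of fish.

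The deposited values were log2 signals, scaled by the authors to a common level per array. The sorted cells held transcripts of several cell types. Of 15 multiciliated cell markers listed, 8 had a probe set. None of the 8 was at background, and 6 rose in the morphants (adjusted p under 0.05 in limma), where 2.49% of all probe sets tested were called higher. The marker tekt3 went the other way without a call, at 8.54 and 8.17 in controls against 7.26 and 7.49 in morphants (−0.98 ± 0.21). The mean log2 signal of the 8 was 8.86 and 8.80 in controls against 10.41 and 10.38 in morphants. Skeletal muscle markers averaged 12.02 and 11.53 in controls against 11.19 and 10.92 in morphants, and myeloid markers 12.70 to 12.87 over the 4 arrays. Morphant replicate 2 stood apart in its controls, with poly-A spike-ins at 8.73 against 9.53 to 9.93 on the others and an actin 3′ minus 5′ signal of 3.39 against 2.38 to 2.54. Leaving that array out moved the difference of 27 of the 46 matrix probe sets tested by over 1.5 times, as did leaving out morphant replicate 1, and each control array did so for 20. Differences without an array are given below for many of these genes. Here p-values come from limma, which combines the spread of each probe set between 2 arrays per group with a variance pooled over probe sets. An exact two-sided permutation test of 2 against 2 cannot go below p = 0.333.

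Of the 64 probe sets, 46 (43 genes) passed the filter on dim signals and were tested with limma across all 11626 probe sets kept. In the morphants the laminin gene lama5 rose, and rcn3, a reticulocalbin that binds calcium in the endoplasmic reticulum, and col15a1b, a basement membrane collagen, fell (Benjamini-Hochberg adjusted p under 0.05). That is 1 higher and 2 lower of 46, where 2.49% of all probe sets tested were called higher and 0.12% lower. The same shares apply to each count of calls below, and 0 calls among few probe sets say little about a family or list. The median log2 difference of the 46 was −0.29, against −0.017 for all probe sets tested, and 32 were below 0, against 52.0% of all, or 24 without morphant replicate 2. All 3 actinodins and all 8 probe sets of fibrillar collagens lay below 0, and 2 of 9 basement membrane probe sets did. These counts rest in part on values near 0. Without morphant replicate 2, 6 of the 8 fibrillar probe sets lay below 0, and without morphant replicate 1 or control replicate 2, 6 and 5 of the 9 basement membrane probe sets did, while the actinodins stayed at 3 of 3 with any array left out.

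**Figure D1:**
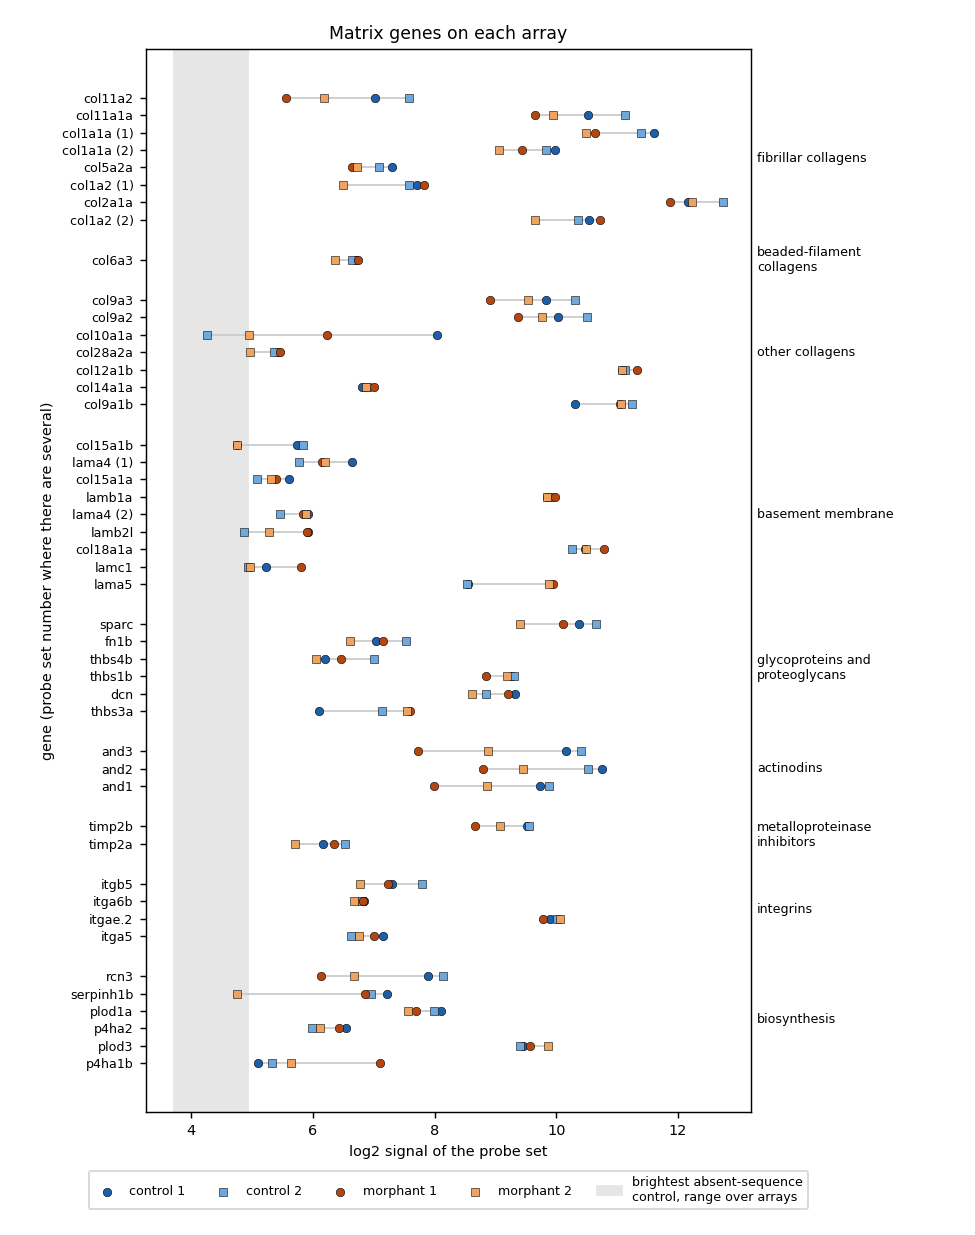
Log2 signal (x axis) of each of the 46 probe sets tested (y axis, by role), with 1 point per array and the range of the brightest absent-sequence control shaded. The morphant points of and1, and2, and3, rcn3 and col15a1b lie left of both control points, those of lama5 lie right of them, and those of lamb1a and col12a1b overlap with them.

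Both control arrays were separate from both morphant arrays for 18 of the 46 downward, against 24.7% of all probe sets tested, and for 5 upward, against 25.1%. Separate groups with a difference of at least 2-fold were found for 8 downward, against 1.38% of all, and for 2 upward, against 4.62%. At an unadjusted p under 0.05, 14 were lower, against 6.1% of all, and 2 higher, against 11.6%. The 8 that were separate and at least 2-fold lower were and1, and2, and3, col11a1a, col11a2, col15a1b, rcn3 and serpinh1b, and the 2 upward were lama5 and p4ha1b. The median of the 46 depended on morphant replicate 2, since it was −0.032 without that array and −0.47 without morphant replicate 1. In bulk RNA, more or fewer cells of a type and more or less RNA per cell cannot be told apart. This applies to each value below.

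**Figure D2:**
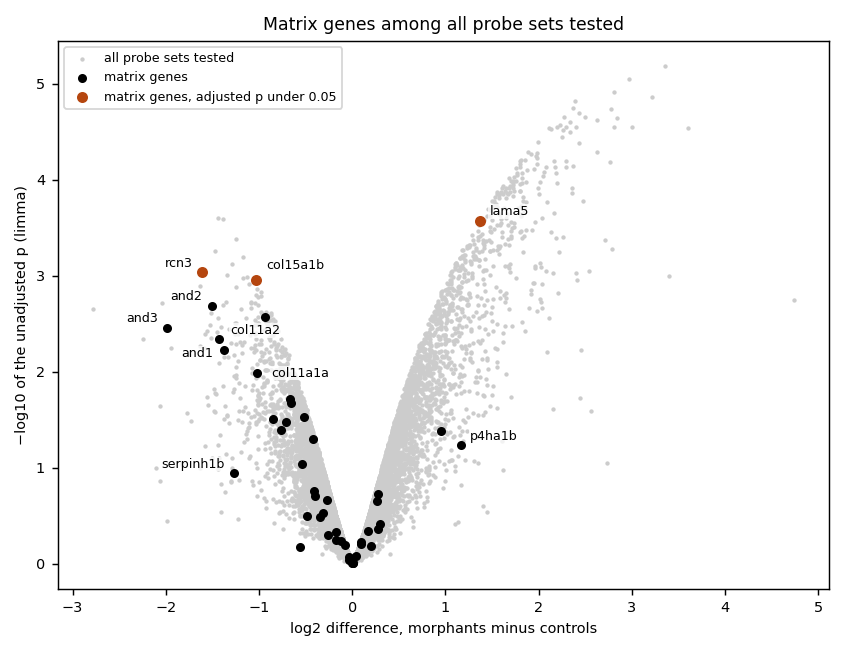
Log2 difference between morphants and controls (x axis) against −log10 of the unadjusted p from limma (y axis) for all 11626 probe sets tested (grey), the 46 matrix probe sets (black) and the 3 past the adjusted threshold (orange). Genes with a difference of at least 2-fold are named, 8 on the left and 2 on the right.

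The fibrillar collagens had 8 probe sets of 6 genes tested, with 0 above 0 and a median of −0.58. Of these, 0 were called, where 2.49% of all probe sets tested were called higher and 0.12% lower. The alpha 1 chain of type I collagen, col1a1a, the main collagen of skin and bone, gave log2 signals of 11.61 and 11.40 in controls against 10.64 and 10.49 in morphants. Both morphant arrays were the lower ones, by 0.94 ± 0.18 (SE) on the log2 scale, with an adjusted p of 0.0706. It passed with 50% of probe sets filtered out as dim (adjusted p = 0.0244) and with an intensity trend in the variance prior (adjusted p = 0.0058). It also passed with a pseudocount of 16 (adjusted p = 0.0456) or 64 (adjusted p = 0.0143). It did not pass without the filter (adjusted p = 0.203), with quantile scaling, with median centring or with the replicate block. A second col1a1a probe set read 9.97 and 9.83 against 9.43 and 9.05, again without overlap (−0.66 ± 0.20, adjusted p = 0.192). Both carry a suffix that marks probes shared with other transcripts, so close relatives may add to their signals. Its partner chain col1a2 did not follow it on each array. The col1a2 signals were 10.54 and 10.35 in controls against 10.71 and 9.66 in morphants, so that morphant replicate 1 was the highest of all and replicate 2 the lowest. The other col1a2 probe set had the same order, at 7.71 and 7.58 against 7.82 and 6.49. Without morphant replicate 2 the col1a2 differences were 0.27 and 0.18, and without morphant replicate 1 they were −0.79 and −1.15. The type V gene col5a2a, whose product helps to start type I fibrils, read 7.30 and 7.08 against 6.63 and 6.72 and did not pass either (−0.51 ± 0.17, adjusted p = 0.223).

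Of 6 collagens of cartilage and of the notochord sheath, 5 had their lowest signal on morphant replicate 1. Among them, col2a1a, col11a1a and col11a2 are also counted with the fibrillar collagens above. The type XI genes col11a1a and col11a2 encode minor chains of cartilage fibrils. The signals of col11a2 were 7.02 and 7.57 in controls against 5.55 and 6.19 in morphants, a difference of −1.43 ± 0.30 (adjusted p = 0.0924). Those of col11a1a were 10.52 and 11.14 against 9.66 and 9.95, or −1.02 ± 0.26 (adjusted p = 0.140). Type IX collagen decorates type II fibrils, and its genes col9a2 and col9a3 had the same order. The signals of col9a3 were 9.83 and 10.31 against 8.91 and 9.54 (−0.85 ± 0.29), and those of col9a2 10.03 and 10.51 against 9.36 and 9.76 (−0.71 ± 0.25). The groups did not overlap for these 4 of the 6 genes, where 24.7% of all probe sets tested were separate downward, and none passed. With a pseudocount of 64 col11a2 (adjusted p = 0.0437) and col11a1a (adjusted p = 0.0455) passed, as they did with an intensity trend in the prior (adjusted p = 0.0493 and 0.0306), and col11a2 also passed with the replicate block (adjusted p = 0.0450). The main chain of cartilage, col2a1a, overlapped, at 12.17 and 12.74 in controls against 11.86 and 12.23 in morphants (−0.41 ± 0.26), and ranged from −0.70 to −0.13 with single arrays left out, the latter without control replicate 2. The third type IX gene, col9a1b, went apart from its partners, with 10.30 and 11.25 in controls against 11.05 and 11.06 in morphants (0.28 ± 0.33), and its sign changed to −0.19 without control replicate 1.

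Markers of cartilage that are no collagens also lay below 0. Of 3 tested (matn1, cnmd and sox9a), 3 were below 0 and 0 were called. Their summed linear signal ranged from 4194 to 5337 on the control arrays and from 908 to 3851 on the morphant arrays, with none at background. Nearly all of that sum was matn1, and without it the range was 261 to 330 on the control arrays and 172 to 224 on the morphant arrays. The lowest sox9a signal was on control replicate 2. The matrilin gene matn1, a cartilage matrix protein, read 11.94 and 12.29 in controls against 9.52 and 11.82 in morphants, and so was lowest on morphant replicate 1 too. What part cartilage cells in the sort had in the collagen values was not tested.

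The 3 actinodins had the lowest median of the families, −1.51. The signals of and3 were 10.16 and 10.41 in controls against 7.73 and 8.88 in morphants. Those of and2 were 10.74 and 10.52 against 8.79 and 9.46, and those of and1 9.73 and 9.88 against 8.0 and 8.85. In each gene the control arrays lay closer together than the morphant arrays, both morphant arrays lay below them, and morphant replicate 1 was the lowest. The differences were −1.98 ± 0.40 (adjusted p = 0.0785), −1.51 ± 0.27 (adjusted p = 0.0620) and −1.38 ± 0.31 (adjusted p = 0.104), and ranked 8th, 26th and 49th from the lowest among the 11626 probe sets. None passed the test. With 50% of probe sets filtered out as dim, with a pseudocount of 64 or with an intensity trend in the variance prior, all 3 passed. Over all probe sets, calls lower numbered 63, 81 and 103 in those settings, against 14 in the main fit. Without the filter none of the actinodins passed (adjusted p = 0.247 for and3, 0.208 for and2 and 0.278 for and1). None passed with quantile scaling, median centring or the replicate block either. Without morphant replicate 1 the differences were −1.41, −1.18 and −0.95.

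Of markers of fibroblasts and fin mesenchyme other than collagens, 6 were tested, with a median of −0.33. Of these, 5 lay below 0, against 52.0% of all probe sets tested, and 0 were called. Their summed linear signal was 543 to 587 on the control arrays and 416 to 579 on the morphant arrays. The receptor gene mxra8a (−0.85 ± 0.26) and the homeobox genes msx1b (−0.66 ± 0.19) and prrx1a (−0.55 ± 0.29) were separate downward, as were 24.7% of all probe sets tested. The mesenchymal factors prrx1b (−0.10 ± 0.27) and twist1a (0.39 ± 0.29) overlapped, and so did hgd (−0.12 ± 0.35). Their part in the actinodin and collagen values was not tested.

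**Figure D3:**
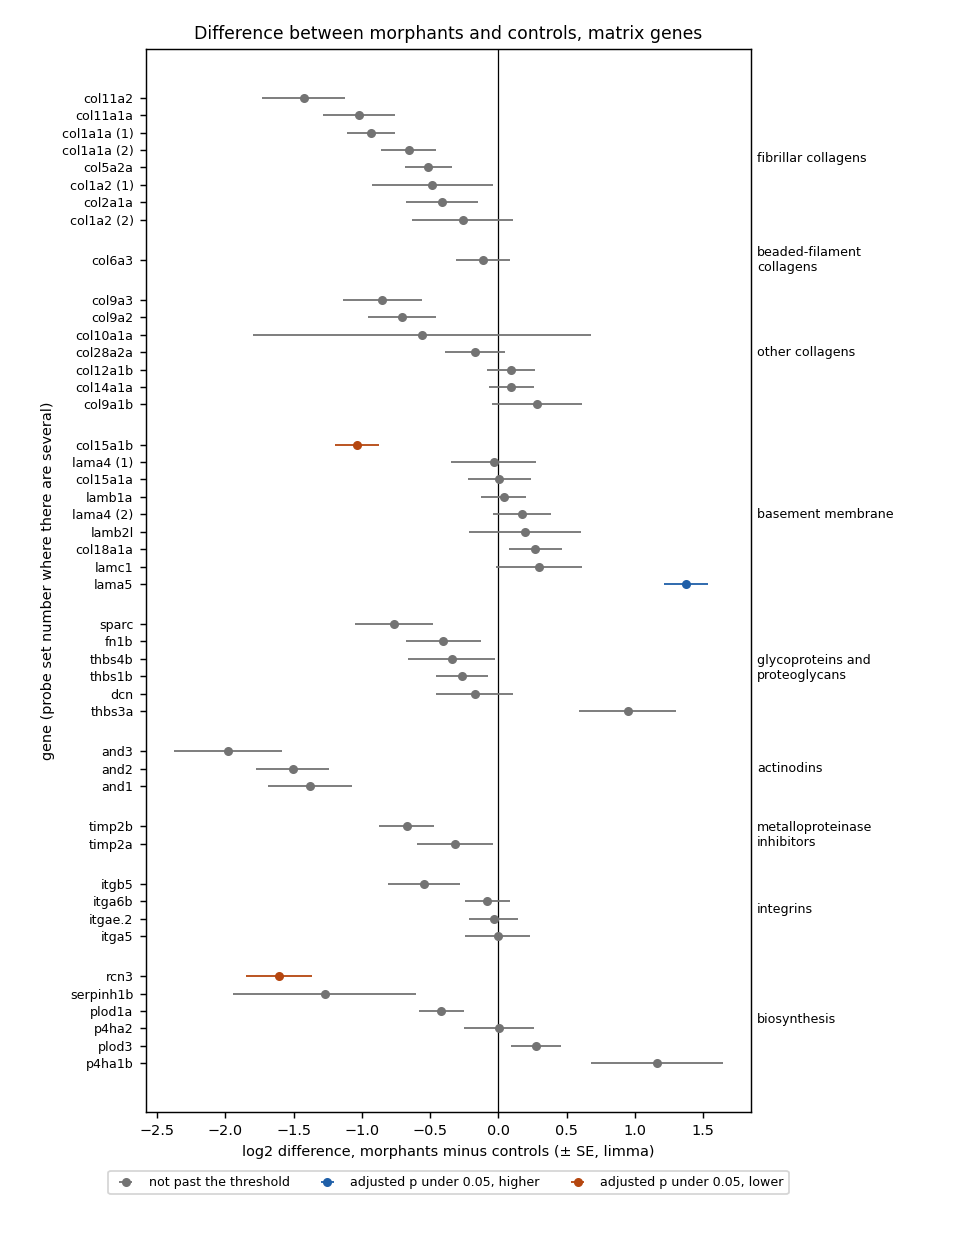
Log2 difference between morphants and controls with its limma SE (x axis) for the 46 probe sets tested (y axis, by role). Blue marks lama5, the only one past the threshold upward, and orange marks col15a1b and rcn3, past it downward. The fibrillar collagens and actinodins lie left of 0 and most basement membrane genes at or right of it.

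Basement membrane genes had 9 probe sets tested, with 1 higher and 1 lower, against 2.49% and 0.12% of all probe sets tested, and a median of 0.17. The median was −0.058 without control replicate 2 and −0.030 without morphant replicate 1. The gene lama5 encodes the laminin alpha 5 chain, which joins a beta and a gamma chain in the laminins under many epithelia. It read 8.55 and 8.53 in controls against 9.95 and 9.87 in morphants. The nearest arrays of the 2 groups were 1.33 apart, and both morphant arrays were higher, a rise of 1.37 ± 0.16 (SE, adjusted p = 0.0233), or 2.59-fold. The value ranged from 1.34 to 1.41 when single arrays were left out, and the call was lost each time. It was also lost without the filter (adjusted p = 0.123). None of the beta and gamma chains tested that could pair with lama5 passed, while lamb4 and lamc3 were left out by the filter and not tested. The signals of lamb1a, a beta 1 chain, were 9.84 and 9.90 against 9.98 and 9.84 (0.038 ± 0.16, and −0.034 after median centring). Those of lamc1, the gamma 1 chain, were 5.24 and 4.93 against 5.80 and 4.97 (0.30 ± 0.31). The alpha 4 gene lama4, a laminin of vessels, had 2 probe sets at −0.034 ± 0.31 and 0.17 ± 0.21, and lamb2l, a beta 2-like chain, gave 0.20 ± 0.41. Overlap between the groups was found for lamb1a, lamc1, lama4 and lamb2l. Of 6 pronephric (embryonic kidney) tubule markers tested, 2 lay below 0 and 1, clcnk, was called higher. Groups were separate upward for 4 of the 6, against 25.1% of all probe sets tested, and downward for slc20a1a (−0.34 ± 0.20), against 24.7%. Of the 4, atp1a1a.4 (0.17 ± 0.18) was separate by a narrow gap. What part tubule or multiciliated cells had in the lama5 value was not tested.

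The multiplexin collagens XV and XVIII border the basement membrane. The gene col15a1b read 5.73 and 5.84 in controls against 4.75 and 4.75 in morphants, and fell by 1.04 ± 0.16 (adjusted p = 0.0452). Without the filter it did not pass (adjusted p = 0.164). Its morphant signals were 0.33 and 0.65 above the brightest control for absent sequences on the same array, so this is a dim probe set, and the call was lost with a pseudocount of 16 or 64, with quantile scaling, with an intensity trend in the prior, with the replicate block and with any single array left out. Its paralog col15a1a overlapped, with 5.61 and 5.08 against 5.40 and 5.31 (0.0076 ± 0.23, turning to −0.061 with quantile scaling and −0.065 with median centring). The type XVIII gene col18a1a read 10.48 and 10.25 against 10.79 and 10.49, separate by a narrow gap and not past the threshold (0.27 ± 0.20, adjusted p = 0.542), at 0.12 without morphant replicate 1 and 0.42 without morphant replicate 2. The annotation used here names no type IV collagen, so the main network of the basement membrane was not analysed here.

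The other collagens tested outside these families overlapped between the groups. The fibril-associated genes col12a1b and col14a1a, of types XII and XIV, gave 0.092 ± 0.18 and 0.094 ± 0.17. The beaded-filament gene col6a3 gave −0.12 ± 0.20 and col28a2a, of type XXVIII, −0.17 ± 0.22. For col10a1a, a collagen of fish bone and of maturing cartilage in mammals, the controls themselves spread from 4.26 to 8.04 and the morphants from 4.95 to 6.23 (−0.56 ± 1.24), so no direction can be read.

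Among glycoproteins and proteoglycans 0 of 6 passed, where 2.49% of all probe sets tested were called higher and 0.12% lower. Their median was −0.30, with 5 below 0, against 52.0% of all. The collagen-binding protein gene sparc read 10.37 and 10.66 in controls against 10.11 and 9.40 in morphants (−0.77 ± 0.28, adjusted p = 0.254). The morphants were lower without overlap, and the value was −0.41 without morphant replicate 2 and −1.12 without morphant replicate 1. The thrombospondin gene thbs3a went the other way, with 6.11 and 7.14 against 7.59 and 7.55 (0.95 ± 0.35, adjusted p = 0.257), and gave 0.43 without control replicate 1 and 1.46 without control replicate 2. Other thrombospondins were near 0 or below it, thbs1b at −0.27 ± 0.19 (−0.44 without morphant replicate 2 and −0.094 without morphant replicate 1) and thbs4b, known from tendon attachments in zebrafish, at −0.34 ± 0.32. The fibronectin gene fn1b gave −0.40 ± 0.27, and −0.13 without morphant replicate 2. Decorin (dcn), a proteoglycan on collagen fibrils, gave −0.17 ± 0.28.

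Inhibitors of metalloproteinases and integrins gave 0 calls of 6 probe sets, where 2.49% of all probe sets tested were called higher and 0.12% lower. The inhibitor gene timp2b read 9.52 and 9.56 against 8.67 and 9.07, with the morphants lower (−0.67 ± 0.20, adjusted p = 0.185), and timp2a overlapped (−0.32 ± 0.28). Integrins are the cell surface receptors for matrix proteins, and their 4 probe sets had a median of −0.059. The subunit gene itgb5, whose partner is the alpha v chain, was separate by a narrow gap at 7.30 and 7.80 against 7.23 and 6.77 (−0.54 ± 0.26, adjusted p = 0.370), with −0.31 without morphant replicate 2. The fibronectin receptor gene itga5 gave −0.0063 ± 0.24, the laminin receptor gene itga6b −0.081 ± 0.16, and the leukocyte integrin gene itgae.2 −0.036 ± 0.18. Of the integrins found, itga2b, a thrombocyte marker, was at background on all 4 arrays.

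Genes that make and fold collagen lay on both sides of 0. Of 6 tested, 0 rose and 1 fell, against 2.49% and 0.12% of all probe sets tested. Of these 6, 3 lay below 0, and the median was −0.21, or −0.38 to −0.037 with single arrays left out. The reticulocalbin gene rcn3 read 7.88 and 8.14 in controls against 6.14 and 6.67 in morphants and fell by 1.61 ± 0.24 (adjusted p = 0.0408). Its groups were 1.22 apart at the nearest arrays, and the value ranged from −1.88 to −1.34 when single arrays were left out, with the call lost each time. The call was also lost without the filter (adjusted p = 0.172) and with quantile scaling (adjusted p = 0.0588). The collagen chaperone gene serpinh1b (Hsp47 in mammals) read 7.22 and 6.95 against 6.86 and 4.76. It was low on morphant replicate 2 above all, and its difference of −1.27 ± 0.67 (adjusted p = 0.406) was −0.22 without that array and −2.33 without morphant replicate 1. The lysyl hydroxylase gene plod1a was separate and lower, at 8.11 and 8.0 against 7.70 and 7.57 (−0.42 ± 0.17, adjusted p = 0.283), while plod3, a lysyl hydroxylase that also adds sugars, was separate and higher, at 9.46 and 9.41 against 9.56 and 9.86 (0.28 ± 0.18, adjusted p = 0.507, and 0.13 without morphant replicate 2). The prolyl 4-hydroxylase gene p4ha1b read 5.09 and 5.33 against 7.11 and 5.64, which put both morphants above the controls (1.16 ± 0.48, adjusted p = 0.304), and this was 0.43 without morphant replicate 1 and 1.90 without morphant replicate 2. Its relative p4ha2 gave 0.0050 ± 0.25, with the sign turned by quantile scaling (−0.058), median centring (−0.068) and a pseudocount of 64 (−0.0023).

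A wider list of matrix genes outside the symbol rule held 44 tested genes, of which 0 rose and 1 fell, with a median of −0.28 and 32 below 0. Of all probe sets tested, 2.49% were called higher, 0.12% lower and 52.0% were below 0. Groups were separate downward for 20 of the 44 genes, against 24.7% of all, and upward for 3, against 25.1%. The list of collagen folding, export and processing genes made up 23 of the 44, with 19 below 0, 12 separate downward, 1 separate upward and a median of −0.40. In this list the isomerase gene fkbp9, whose product turns proline bonds during folding, fell, reading 10.30 and 10.03 against 8.97 and 9.02 (−1.17 ± 0.18, adjusted p = 0.0438). Without the filter 0 of all probe sets were called, so the fkbp9 call was lost there. The next strongest, crtap, part of the prolyl 3-hydroxylation complex, read 9.02 and 8.75 against 7.54 and 7.95 and did not pass (−1.14 ± 0.22, adjusted p = 0.0717). The isomerase gene fkbp10b, which works with the Hsp47 chaperone in mammals, gave −1.94 ± 0.43 and had the largest difference of the list. The general chaperones of the endoplasmic reticulum hspa5 (−0.57 ± 0.24) and canx (−0.21 ± 0.17) did not pass. Neither did pdia4 (−0.82 ± 0.32) and pdia6 (−0.54 ± 0.18). Groups were separate downward for hspa5, canx, pdia4 and pdia6. Some genes of the list did not fall, among them ppib (0.062 ± 0.17) and sdf4 (0.22 ± 0.20). The gene separate upward was tmem38b (0.93 ± 0.26, adjusted p = 0.165).

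The remaining groups of the wider list gave no call. Proteoglycans and linkers had 4 of 6 below 0, with hapln1a, a link protein of hyaluronan matrices, at −0.74 ± 0.18 and sdc2, a syndecan, at 0.39 ± 0.18. Other glycoproteins had 7 of 9 below 0, among them matn4, another matrilin (−1.20 ± 0.26, adjusted p = 0.0954), while spon1b, a spondin, gave 0.55 ± 0.19. Matrix proteases had 2 of 5 below 0. Of these, mmp14b gave −0.39 ± 0.16 and mmp2 −0.73 ± 0.39, and mmp9 and mmp13a, known from leukocytes, gave 0.023 ± 0.16 and 0.036 ± 0.17. The lysyl oxidase tested, loxl2b, gave 0.15 ± 0.23.

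**Figure D4:**
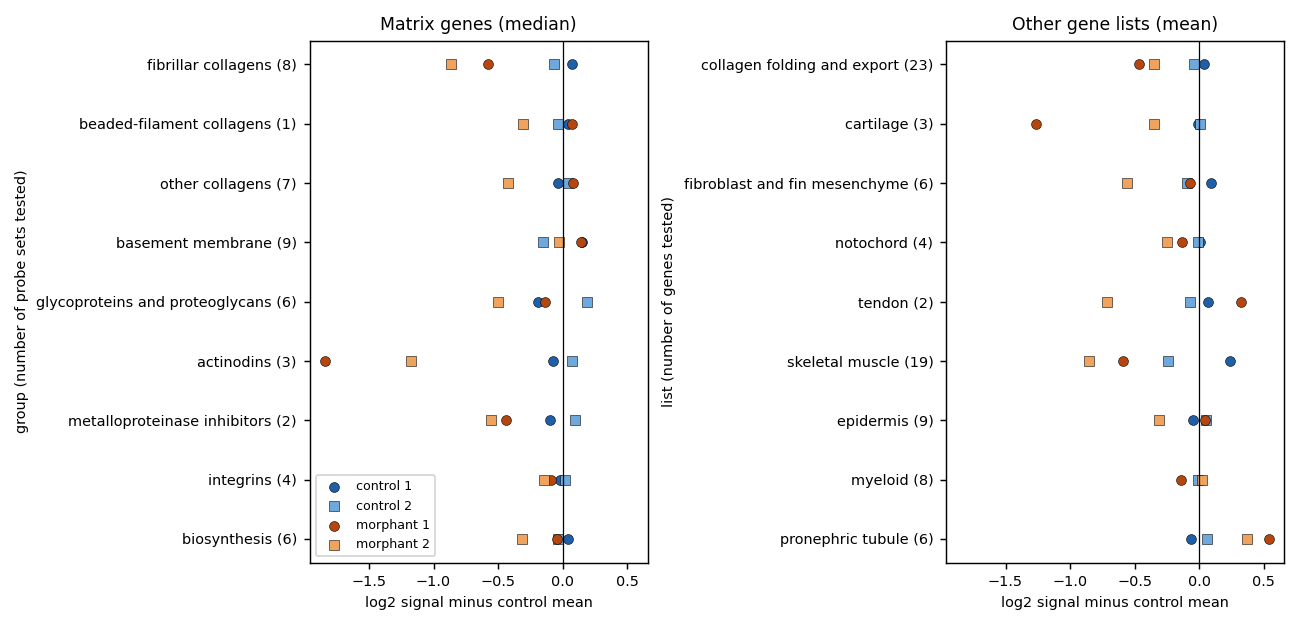
Log2 signal minus the control mean on each array (x axis): the median over probe sets for each family of matrix genes (left) and the mean over genes for other lists (right). By these medians and means, actinodins and cartilage markers are lowest on morphant replicate 1. Fibrillar collagens and skeletal muscle markers are lowest on morphant replicate 2, though 4 of 8 fibrillar probe sets, each of a different gene, are lowest on morphant replicate 1.

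The arrays did not order all families alike. The median of the actinodins, as log2 signal minus the control mean, was −1.84 on morphant replicate 1 and −1.18 on morphant replicate 2. For fibrillar collagens it was −0.57 and −0.86, and for glycoproteins and proteoglycans −0.14 and −0.50. Of the 8 fibrillar probe sets, 4 were lowest on morphant replicate 1 and 4 on morphant replicate 2. Those lowest on morphant replicate 1 were of col2a1a, col5a2a, col11a1a and col11a2. Those lowest on morphant replicate 2 were all of col1a1a and col1a2. Over the 46 probe sets, morphant replicate 2 was the lowest of the 4 arrays in 17 (37.0%) and morphant replicate 1 in 14 (30.4%), against 27.2% and 26.2% of all probe sets tested. Skeletal muscle markers, 19 of 19 below 0 with 0 called, had means of −0.59 and −0.85 on the morphant arrays, and a summed linear signal of 118832 to 159590 on the control arrays and 96218 to 120171 on the morphant arrays. Of 5 tendon markers listed, only xirp2a and egr1 had a probe set, and 0 of these 2 were called. Their means were 0.32 and −0.72 on the morphant arrays. The egr1 signals were 6.95 and 7.35 in controls against 7.98 and 6.36 in morphants, and those of xirp2a 7.92 and 7.24 against 7.40 and 6.94. With 2 genes, these means say little about tendon cells. Of 6 notochord markers other than collagens with a probe set, 4 were tested. Of these, 3 lay below 0, against 52.0% of all probe sets tested, and the median was −0.25. The marker tbxta did not pass the filter and read 3.87 and 5.18 in controls against 5.27 and 5.98 in morphants, separate upward. Also not tested was noto, at 4.25 and 4.38 against 5.16 and 3.94. Bone markers other than collagens had 0 of 3 below 0, 0 called and a median of 0.31. The part of muscle, tendon, notochord and bone cells in the matrix values was not tested.

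**Figure D5:**
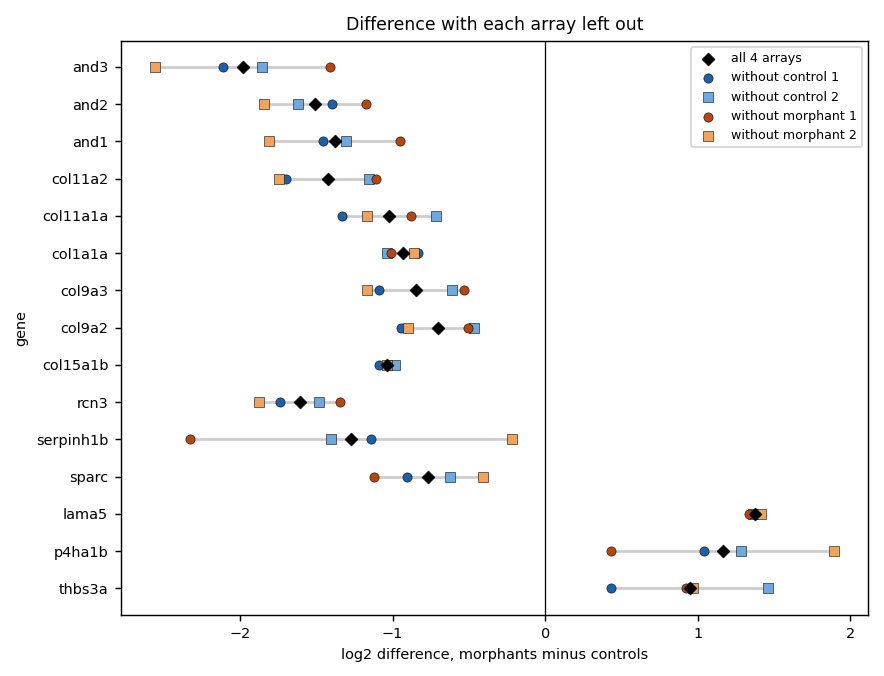
Log2 difference between morphants and controls (x axis) for 15 matrix genes (y axis) with all 4 arrays (black) and with each array left out. The values of lama5, col15a1b and col1a1a stay close together, those of the actinodins stay at −0.95 or lower, and those of serpinh1b reach from −2.33 to −0.22.

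The 18 probe sets that did not pass the filter were dim, and 13 of them lay at or under the brightest absent-sequence control on 3 or 4 arrays. Among them col8a1a, a network-forming collagen, read 3.26 and 2.06 in controls against 0.47 and 0.00 in morphants, below background on each array, so no difference can be given. All 3 probe sets of fn1a, the other fibronectin gene, were in this set, and 2 were at background on all 4 arrays. Others at background on all 4 were lamc3, col28a1a, col10a1b, and 1 probe set each of fbln1 and col17a1b. The other fbln1 probe set, also not tested, read 4.61 and 3.56 in controls, both at background, against 5.46 and 5.09 in morphants, both above it. The laminin gene lamb4 lies next to lamb1a in the gene table, with no protein-coding gene between them. It read 4.10 and 4.07 against 5.16 and 4.47, with 1 control array at background. Both rcn1 probe sets and the second col5a2a probe set were in this set as well, as were nid1a, which links laminin to collagen IV, and p4htma, a membrane-bound prolyl 4-hydroxylase.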

How the data were processed

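Each array measured RNA of sorted cells from one extract. The authors deposited 1 log2 signal for each probe set and array, made with MAS5 according to the submitters' processing notes. The linear signals averaged 500.1 on the arrays once 2% had been trimmed from both ends. Genome build and detection calls are not given in the sources used here. Control probe sets (115) were dropped, and so were those with a mean over the arrays in the lowest 25% of the rest. The group difference came from limma 3.58.1 under R 4.3.3 with moderated variances, and p-values were adjusted by Benjamini-Hochberg over all 11626 probe sets tested. A signal at or under the brightest of 20 control probe sets for absent sequences, on that array, was called background. Symbols come from the platform annotation, and all 64 probe sets matched the RefSeq gene table of GRCz12tu. On simulated arrays the fit recovered 73.2% of log2 changes of 2 and 1.8% of changes of 1, and 5.84% of its calls were false. The simulation changed 200 probe sets in random directions and drew variances without regard to signal intensity. In the data 290 calls were higher and 14 lower, so these rates may not carry over.

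The members, role groups and lists were chosen with earlier results of these data known. Named genes are those past the threshold, the 4 strongest and 2 brightest of each role group and genes whose probe sets differ in sign, and other members were added to account for each. Nothing in the labels says that equal replicate numbers pair arrays. Alternatives covered the filter, scaling, pseudocounts, the variance prior, the replicate block, 1 probe set per gene and each array left out.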

Additional observations from a re-analysis of the deposited data

How the results depend on the processing

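The 2 arrays per group limit the test, and so do dim probe sets. The counts of matrix probe sets called, 1 higher and 2 lower, were 0 and 0 without the filter. There 12 of 64 were lower and 1 higher at unadjusted p under 0.05 in limma, against 647 lower and 1380 higher of all 15502 probe sets. With an array left out, 1 group holds 1 array, and the calls did not hold. The lower count was 4 with the lowest 50% left out, 0 with quantile scaling, 4 with a pseudocount of 16, 7 with a pseudocount of 64 and 7 with an intensity trend in the prior, and the higher count was 1 in each of these. Over all probe sets, calls lower numbered 14, against 63, 8, 34, 81 and 103 in those settings and 0 without the filter. Calls higher over all probe sets numbered 290, against 0 without the filter, 495 with a pseudocount of 64, 483 with the trend and 0 to 53 with arrays left out. Median centring left both member counts as they were. The replicate block also gave 1 and 2, with col11a2 (adjusted p = 0.0450) in place of col15a1b (adjusted p = 0.0773), and same-numbered arrays deviated together with a correlation of 0.021.

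The median of the 46 probe sets was −0.45 with the lowest 50% left out and ranged from −0.47 to −0.032 with single arrays left out. The median of the fibrillar collagens was −0.51 without the filter, −0.66 with median centring, −0.51 with a pseudocount of 64, −0.72 with 1 probe set per gene, and −0.86 to −0.57 with arrays left out. That of the other collagens was −0.17, and −0.039 without the filter, −0.31 with the lowest 50% left out and −0.42 to 0.080 with arrays left out. That of integrins was −0.29 with the lowest 50% left out, −0.13 with median centring and −0.18 to −0.079 with arrays left out. That of basement membrane genes was −0.058 to 0.40 with arrays left out. Biosynthesis genes gave 0.0050 without the filter and −0.38 to −0.037 with arrays left out, and metalloproteinase inhibitors −0.67 with the lowest 50% left out. These moves follow from which probe sets were tested where the filter changed; for the other settings the cause was not tested.

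Signs that turned were of probe sets near 0 or with widely spread arrays. With a pseudocount of 64, col15a1a gave −0.0027 and p4ha2 −0.0023. Quantile scaling gave −0.061 for col15a1a and −0.058 for p4ha2, and median centring −0.065, −0.068 and, for lamb1a, −0.034. Leaving out single arrays gave −0.46 to 0.12 for dcn, −0.47 to 0.40 and −0.058 to 0.40 for the lama4 probe sets, −0.27 to 0.26 for itga5, −0.17 to 0.10 for itgae.2, −0.19 to 0.75 for col9a1b, −2.45 to 1.33 for col10a1a, −0.26 to 0.28 for col15a1a, −0.28 to 0.29 for p4ha2, −0.34 to 0.73 for lamb2l, −0.74 to 0.059 for thbs4b, −0.12 to 0.72 for lamc1, −0.033 to 0.22 for col12a1b, −0.030 to 0.11 for lamb1a, −1.15 to 0.18 and −0.79 to 0.27 for the col1a2 probe sets, −0.64 to 0.0022 for timp2a, −0.42 to 0.079 for col28a2a and −0.30 to 0.073 for col6a3.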
